A study of Mus musculus with 6 samples.

Results

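Vascular and lymphatic endothelial genes were followed in RNA-seq of mouse palatal shelves, the paired outgrowths that form the roof of the mouth. The 34 genes were taken as a named set, and their rows were found by exact symbol in the deposited table of 49492 gene symbols. All 34 were present, and all 34 passed the filter on low counts along with 19284 genes in all. The tissue was dissected from C57BL embryos at E14.5. Both groups carried loxP-flanked Prmt1 on both copies (PRMT1 fl/fl). The 3 control libraries had that genotype alone, and the 3 deletion libraries had Wnt1-Cre; PRMT1 fl/fl, so Cre itself was present in the deletion group only. Prmt1 encodes an arginine methyltransferase, and the study asks which palatal genes change when it is lost. Each library goes by the start of its column heading: cont212, cont213 and cont220 are controls, and mut208, mut211 and mut221 carry the deletion.

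Endothelial cells line blood and lymphatic vessels. In vascular endothelium, the VEGF receptors, the TIE receptors and the apelin receptor take up signals from the surrounding mesenchyme or from other endothelial cells, while VE-cadherin, claudin-5 and related proteins hold the cells together. Lymphatic endothelium is set apart by the transcription factor PROX1 and depends on VEGF-C acting through the receptor encoded by Flt4. Wnt1-Cre acts in the neural crest, the source of most palatal mesenchyme, whereas most endothelial cells of the head arise from mesoderm.

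Few of the endothelial genes passed the test between deletion and control libraries. Tested across all genes in edgeR (quasi-likelihood, Benjamini-Hochberg adjusted), 2 of 34 passed an adjusted p of 0.05, both lower: Flt4, the VEGF-C receptor, at 1.39-fold and Apln, the ligand apelin, at 1.31-fold. The remaining 32 did not pass. That is 5.88% of the set, against 7.01% of all genes tested (3.65% higher and 3.37% lower). Among widely used endothelial markers, the log2 difference (log2 fold change, deletion minus control) was 0.05 for Pecam1, whose groups overlapped, and -0.13 for Cdh5, -0.23 for Kdr, -0.20 for Tie1 and -0.11 for Icam2, which lay lower without overlap and did not pass. For 28 of 34 genes (82.4%) the 95% interval of the fold change lay within 1.5-fold in both directions, against 62% of all genes tested. The exceptions in the set were Flt4, Apln, Lyve1, Sox17, Vwf and Esm1. These shares were not matched for expression level.

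Several facts about the libraries touch these results. Prmt1 measured 258, 250 and 246 CPM (counts relative to the library total, scaled between libraries by TMM) in cont212, cont213 and cont220, and 201, 206 and 217 CPM in mut208, mut211 and mut221, a log2 difference of -0.27 with an SE of 0.05 (edgeR adjusted p = 0.0113). Libraries cont212 and cont213 were male by Xist (15.5 and 16.0 CPM) and Y-linked genes, and cont220 and all deletion libraries female (Xist 3384 to 4487 CPM). Embryonic over adult beta-globin, a ratio that falls with age, was 0.0779 and 0.0946 in those 2 controls and 0.191 to 0.320 in the other 4 libraries. Fits with sex as a covariate compare the deletion libraries with cont220, as does leaving out cont212 and cont213, so these are not separate checks. Library totals were 44919889 to 50022829 estimated counts. Whether the libraries are separate embryos is not in the labels, and p-values measure only how much these libraries vary. Of 10 palatal mesenchyme markers, such as Osr2 and Shox2, none was at 0 in any library. Among the 10, 1 passed the test between groups, lower after deletion (10%, beside 7.01% of all genes tested). Their log2 differences were below 0 for 6 and above 0 for 4. In bulk tissue, fewer cells of a type and less RNA per cell cannot be told apart.

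Read as a set, the endothelial genes leaned slightly low. Their median log2 difference was -0.10, beside a median of all tested genes within 0.001 of 0, and 23 of 34 were below 0 against 50% of all genes. Without mut208 the median was -0.06 with 20 genes below 0, and without cont213 it was -0.07. Groups did not overlap for 15 of 34 genes (44.1%), 10 with the deletion libraries lower and 5 higher, against 27.5% of all genes tested (13.5% lower and 14.1% higher). An unadjusted p under 0.05 was reached by 16 genes (47.1%), against 22.5% of all genes. The median shift from the control mean was 0.01, 0.04 and -0.05 (log2) in cont212, cont213 and cont220, and -0.18, -0.04 and -0.05 in mut208, mut211 and mut221. Library mut208 thus stood lowest, while cont220 was level with mut211 and mut221. With sex as a covariate the median log2 difference was -0.05, 0 of 34 genes passed and 22 of 34 had a smaller change than without it. Library cont220 lay outside the range of the deletion libraries for 19 of 34 genes (55.9%), 11 above and 8 below, against 59.7% of all genes (29.9% above and 29.9% below).

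**Figure D1:**
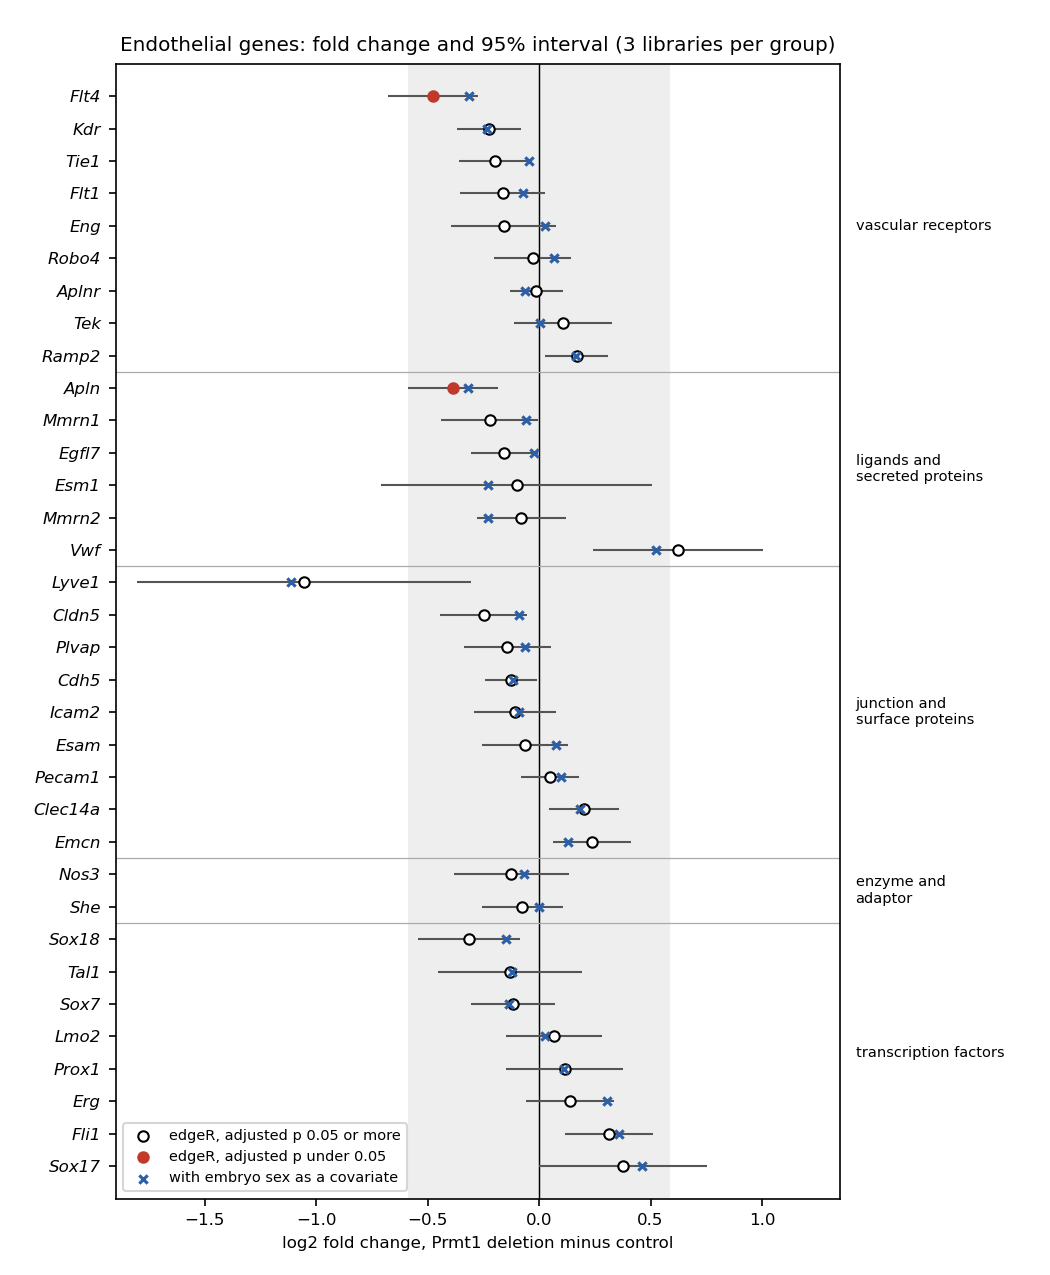
Log2 fold change (Prmt1 deletion minus control, horizontal axis) of the 34 endothelial genes by role, with 95% intervals from edgeR as lines; red points passed an adjusted p of 0.05, open points did not, and blue crosses give the value with embryo sex as a covariate. The grey band marks 1.5-fold in both directions; Flt4 (-0.48) and Apln (-0.39) are the red points, and Lyve1 (-1.05) and Vwf (0.62) lie farthest out.

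Among the VEGF receptors, Flt4 fell, and Kdr and Flt1 lay lower without passing. Flt4 (chromosome 11, 49609263 to 49652739, mm10, plus strand) stood at 27.9, 32.7 and 25.7 CPM in controls and 20.5, 21.2 and 20.3 CPM after deletion. Every deletion library was below every control, and the deletion libraries were within 1 CPM of each other. Means were 28.8 ± 3.59 and 20.7 ± 0.455 CPM (± SD of n = 3 here and below), a log2 difference of -0.48 with an SE of 0.09 (edgeR adjusted p = 0.0116). The call was lost without cont213 (-0.38, edgeR adjusted p = 0.0629), without mut208 (-0.47, edgeR adjusted p = 0.0548) and with sex as a covariate (-0.31, edgeR adjusted p = 0.246).

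Kdr, the main signalling receptor for VEGF-A (chromosome 5, 75932827 to 75978458, minus strand), was at 79.4, 87.5 and 84.0 CPM in controls and 65.5, 76.0 and 73.1 CPM after deletion. The groups did not overlap, with mut208 lowest, and the log2 difference was -0.23 (edgeR adjusted p = 0.0623). It passed with upper-quartile factors (edgeR adjusted p = 0.0493), with no filter on low counts (edgeR adjusted p = 0.0202) and by DESeq2 (adjusted p = 0.0360). With sex as a covariate it was -0.23 (edgeR adjusted p = 0.306), and without mut208 it was -0.17 (edgeR adjusted p = 0.228). Flt1, which binds VEGF-A tightly and limits signalling through Kdr (chromosome 5, 147561604 to 147726011, minus strand), gave 33.7, 40.5 and 33.9 CPM in controls against 29.7, 33.5 and 33.3 CPM. The lowest control and the highest deletion library were nearly level (log2 difference -0.16, edgeR adjusted p = 0.302). The difference was -0.07 without cont213, -0.11 without mut208 and -0.07 with sex as a covariate. Of their ligands, Vegfa had overlapping groups (129 to 134 CPM in controls, 121 to 138 CPM after deletion, 95% interval of the log2 difference -0.13 to 0.13). Pgf, the placental growth factor that binds the Flt1 product, went from 6.48 ± 0.313 to 8.57 ± 0.899 CPM without passing (edgeR adjusted p = 0.0836; DESeq2 adjusted p = 0.0464).

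Apln, the apelin gene, fell, and the gene of its receptor did not pass. Apln (chromosome X, 48025146 to 48034853, minus strand) encodes a peptide made by sprouting tip cells, among other sources. It measured 35.1, 29.8 and 30.3 CPM in controls and 23.0, 27.1 and 22.9 CPM after deletion. All deletion libraries lay below all controls, and cont220 was level with cont213. Means were 31.7 ± 2.91 and 24.3 ± 2.4 CPM, a log2 difference of -0.39 with an SE of 0.09 (edgeR adjusted p = 0.0304). The call was lost without cont212, cont213, mut208 or mut221 (log2 differences -0.31, -0.43, -0.35 and -0.34; edgeR adjusted p = 0.102, 0.0775, 0.131 and 0.0586) and with sex as a covariate (-0.32, edgeR adjusted p = 0.300). Aplnr, the receptor, stood at 81.9, 83.5 and 87.2 CPM in controls and 80.9, 81.4 and 88.2 CPM after deletion. The deletion libraries lay on both sides of the controls, mut208 and mut211 just below all of them and mut221 just above. The 95% interval of the Aplnr log2 difference was -0.13 to 0.11.

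The bases just upstream of 3 of these genes are shown because Apln was called, Kdr came nearest to the threshold among the other VEGF receptors, and Flt1 is their companion on chromosome 5. The window for Flt4 is not printed, as all 250 of its bases lie in an exon in GENCODE. The sequences are from RefSeq (GRCm38.p6, the assembly mm10 names), on each gene's own strand, read 5′ to 3′ and ending next to the annotated start. Capitals mark matches to AGGAAG or CGGAAG on either strand, letters bound by the ETS factors, of which Erg and Fli1 are members of the set. The stretches are chrX:48034854-48035103 for Apln, chr5:75978459-75978705 for Kdr and chr5:147726012-147726261 for Flt1, all on the minus strand. The 3 bases of the Kdr window that lie in an exon were left out.
Apln: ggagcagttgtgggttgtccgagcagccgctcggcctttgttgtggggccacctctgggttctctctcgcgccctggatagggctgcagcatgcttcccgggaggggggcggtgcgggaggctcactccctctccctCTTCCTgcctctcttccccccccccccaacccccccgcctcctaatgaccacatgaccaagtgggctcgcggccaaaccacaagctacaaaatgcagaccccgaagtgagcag
Kdr: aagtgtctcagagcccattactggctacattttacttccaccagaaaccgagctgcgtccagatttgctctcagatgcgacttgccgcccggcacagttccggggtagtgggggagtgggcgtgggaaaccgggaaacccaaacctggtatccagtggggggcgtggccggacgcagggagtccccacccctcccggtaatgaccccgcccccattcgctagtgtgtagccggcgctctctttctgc
Flt1: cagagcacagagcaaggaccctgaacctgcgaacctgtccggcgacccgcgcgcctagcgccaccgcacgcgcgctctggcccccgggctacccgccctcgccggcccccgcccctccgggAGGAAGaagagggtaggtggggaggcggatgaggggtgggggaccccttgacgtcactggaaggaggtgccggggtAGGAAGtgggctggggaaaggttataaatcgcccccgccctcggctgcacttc
Apln held 1 match, Kdr 0 and Flt1 2. RefSeq windows were matched for 18 of the 34 genes, some with several starts, giving 24 windows. A match was present in 10 of these 24 windows (41.7%), beside 39.2% of all 32851 windows of 250 bases. The SOX letters ACAAT or ACAAAG on either strand, whose ends can share bases with an ETS match, were in 10 of the 24 (41.7%), beside 38.8%. ACGTG, the core letters of the hypoxia response element, were in 2 of the 24 (8.33%), beside 16.6%. A match is a description of letters, not of binding.

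The TIE receptors and endoglin did not pass. Tie1, an orphan receptor that works with Tek, was at 57.8, 59.8 and 50.4 CPM in controls and 46.6, 50.1 and 49.8 CPM after deletion (log2 difference -0.20, edgeR adjusted p = 0.129). The groups did not overlap, but cont220 was less than 1 CPM above the highest deletion library, and with sex as a covariate the log2 difference was -0.05. Without cont220, Tie1 passed (-0.27, edgeR adjusted p = 0.0336). Tek, the angiopoietin receptor TIE2, gave 27.9, 28.2 and 31.2 CPM against 33.4, 34.2 and 26.4 CPM, with mut221 below all controls and the other deletion libraries above them. Its mesenchymal ligand Angpt1 fell 1.21-fold, from 94.6 ± 10.3 to 78.0 ± 1.20 CPM (edgeR adjusted p = 0.0450; not passing without cont213, cont220 or any 1 deletion library, with adjusted p = 0.0645 to 0.200). The Angpt1 call was also lost with sex as a covariate (-0.36, edgeR adjusted p = 0.139), with robust=FALSE (edgeR adjusted p = 0.0588) and by limma voom (adjusted p = 0.0742). Angpt2, the antagonist ligand, had overlapping groups at 1.61 to 3.05 and 2.90 to 3.20 CPM. Eng, the endothelial co-receptor for TGF-beta family ligands, was at 60.2, 59.1 and 49.5 CPM in controls and 45.7, 47.2 and 58.2 CPM after deletion. The groups overlapped, with cont220 near the low deletion libraries and mut221 near the high controls.

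Robo4, a guidance receptor that stabilises vessels, was at 20.0 to 22.0 CPM in controls and 19.8 to 21.7 CPM after deletion (log2 difference -0.03). Ramp2, the partner that makes the receptor Calcrl respond to adrenomedullin, gave 45.6, 40.9 and 43.5 CPM in controls and 48.0, 47.5 and 50.7 CPM after deletion. The deletion libraries were higher without overlap (log2 difference 0.17, edgeR adjusted p = 0.143). Calcrl itself overlapped (26.0 to 30.0 and 26.5 to 31.6 CPM). Adm, the adrenomedullin gene, was low in all libraries, at 0.924 to 1.58 CPM in controls and 0.581 to 0.826 CPM after deletion (log2 difference -0.98, edgeR adjusted p = 0.0919). In total, of the 9 receptors and receptor partners, 1 fell, 0 rose and 8 did not pass.

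**Figure D2:**
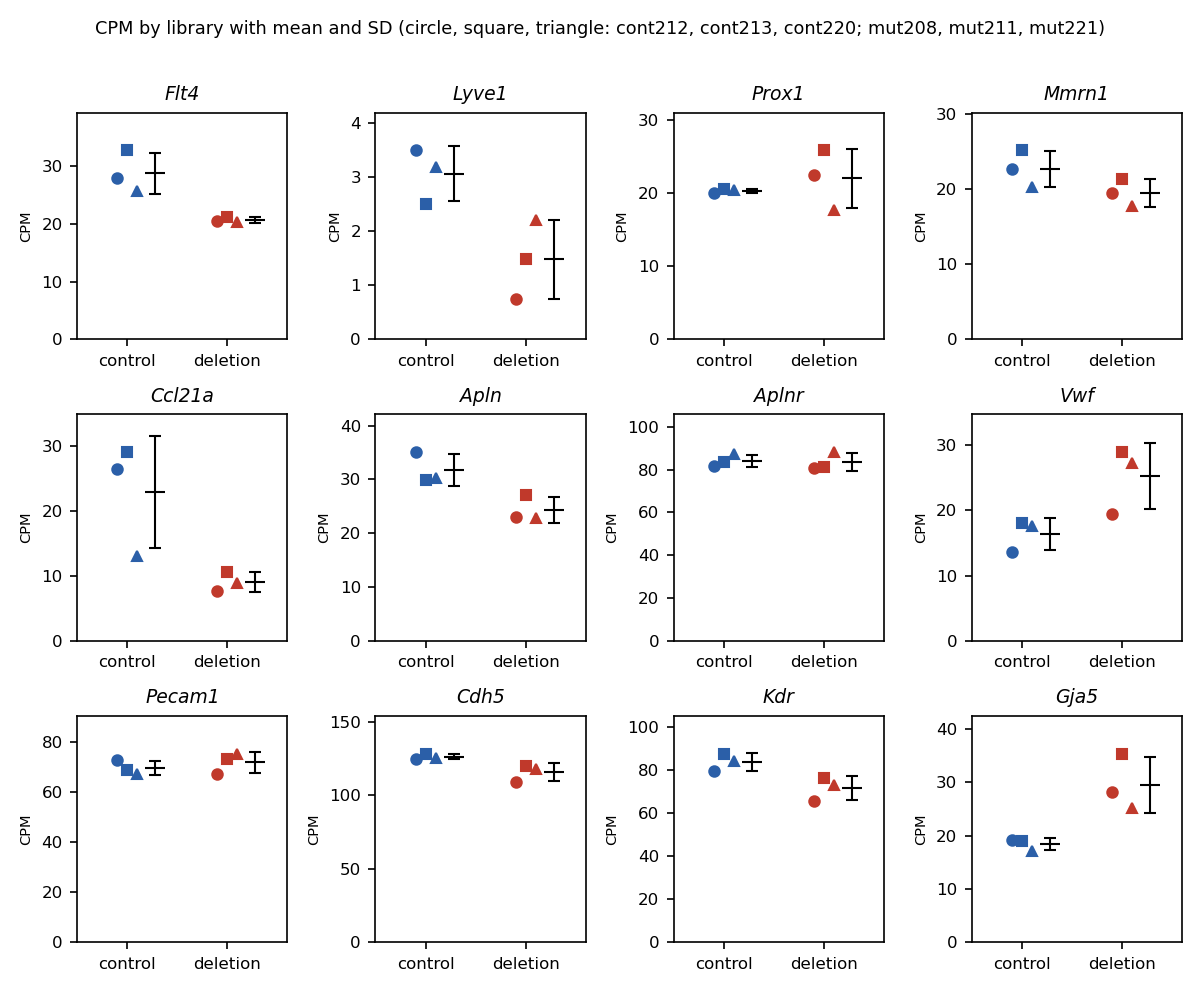
CPM (TMM-scaled, vertical axes from 0) of 12 genes in each library, controls in blue and deletion libraries in red, with mean and SD of 3 libraries in black; Ccl21a and Gja5 are not among the 34. Flt4 and Apln are lower in each deletion library (20.3 to 21.2 and 22.9 to 27.1 CPM), Aplnr and Pecam1 overlap, and cont220 of Ccl21a (13.1 CPM) lies nearer to the deletion libraries than to cont212 and cont213.

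The lymphatic genes were mixed. Prox1, which sets lymphatic identity, was at 20.0, 20.6 and 20.4 CPM in controls, the second-tightest control spread in the set, and at 22.4, 25.8 and 17.7 CPM after deletion, above and below the controls (log2 difference 0.11, 95% interval -0.15 to 0.38). Prox1 is also expressed in muscle and neurons. The summed level of 8 skeletal muscle markers was 975, 1254 and 770 CPM in mut208, mut211 and mut221, against 436 to 489 CPM in controls. Prox1 had the same order over the deletion libraries, mut211 highest and mut221 lowest. That order was not particular to muscle, as Tek, Emcn and the summed erythroid genes also had it. The sum of 6 neuronal markers was 32.4 to 52.2 CPM in controls and 44.6 to 74.1 CPM after deletion. The part of either cell type in the Prox1 values was not tested. Its locus also overlaps the antisense gene Prox1os, whose reads cannot be separated without a known strand setting.

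Lyve1, a hyaluronan receptor of lymphatic vessels, measured 3.50, 2.51 and 3.19 CPM in controls and 0.741, 1.49 and 2.21 CPM after deletion. Every deletion library was below every control, but the deletion libraries differed widely among themselves, with the widest relative spread of the 34 genes (49.6% of the mean). The log2 difference was -1.05, with a 95% interval of -1.80 to -0.30 (edgeR adjusted p = 0.0925), and it rested on 37 to 176 estimated counts per library. It passed without mut221 (-1.46, edgeR adjusted p = 0.0180), with no filter on low counts (edgeR adjusted p = 0.0438) and by DESeq2 (adjusted p = 0.0248). Without mut208 it was -0.73 (edgeR adjusted p = 0.197), and with sex as a covariate -1.11 (edgeR adjusted p = 0.346). Some tissue macrophages also express Lyve1. Of 13 macrophage markers 0 passed, beside 7.01% of all genes tested, and 11 had log2 differences below 0 (84.6%, beside 50%). Groups did not overlap for 4 of the 13, all lower after deletion (30.8%). Of all genes tested, 13.5% were lower and 14.1% higher without overlap. The summed level of the 13 markers was 143 to 197 CPM in controls, with cont220 lowest, and 138 to 154 CPM after deletion. None was at 0, and their part in the Lyve1 values was not tested.

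Mmrn1, multimerin 1 of lymphatic endothelium and platelets, overlapped at 22.8, 25.2 and 20.4 CPM in controls against 19.5, 21.4 and 17.7 CPM (log2 difference -0.22, edgeR adjusted p = 0.217). Of 6 further lymphatic genes, Foxc2, a transcription factor of lymphatic valves that is also made by mesenchyme, rose from 6.83 ± 2.21 to 12.1 ± 1.07 CPM (1.78-fold, edgeR adjusted p = 0.0402). With 1 library left out, Foxc2 passed only without cont212 (edgeR adjusted p = 0.00400, against 0.0665 to 0.147). The call was also lost with sex as a covariate (0.95, edgeR adjusted p = 0.241). The other 5 did not pass, so 16.7% of the 6 were called, beside 7.01% of all genes tested. Log2 differences were below 0 for 3 of the 6 and above 0 for 3. Pdpn lay lower without overlap, at 36.2 ± 1.85 and 31.7 ± 0.718 CPM (log2 difference -0.19, edgeR adjusted p = 0.115). Ccl21a, the chemokine that lymphatic vessels secrete, was at 26.5, 29.1 and 13.1 CPM in controls and 7.61, 10.7 and 8.88 CPM after deletion. It had a log2 difference of -1.34 (edgeR adjusted p = 0.0863), which passed without cont220 (-1.62, edgeR adjusted p = 0.000200), with robust=FALSE (edgeR adjusted p = 0.0175), by limma voom (adjusted p = 0.0456) and by DESeq2 (adjusted p = 0.00505). With sex as a covariate it was -0.54 (edgeR adjusted p = 0.192). Near-identical copies of Ccl21a can share its reads. Vegfc, the ligand of Flt4, gave 15.5, 14.8 and 14.6 CPM in controls and 12.2, 10.6 and 13.3 CPM after deletion, lower without overlap (log2 difference -0.32, edgeR adjusted p = 0.0930; -0.40 and 0.0391 without mut221). Ccbe1, needed to activate VEGF-C, lay at 7.19 to 8.34 and 5.65 to 6.72 CPM, also lower without overlap (-0.30, edgeR adjusted p = 0.198).

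Among the other secreted products, Vwf stood apart. Vwf, the von Willebrand clotting factor stored in endothelial cells and platelets (chromosome 6, 125546774 to 125686679, plus strand), measured 13.6, 18.1 and 17.5 CPM in controls and 19.5, 28.9 and 27.3 CPM after deletion. All deletion libraries were above all controls, with mut208 close to the upper controls. The log2 difference was 0.62 (95% interval 0.24 to 1.01, edgeR adjusted p = 0.0647), and it was 0.53 with sex as a covariate. Vwf passed without mut208 (0.78, edgeR adjusted p = 0.0117), with robust=FALSE (edgeR adjusted p = 0.0470) and by DESeq2 (adjusted p = 0.00117). Of 9 megakaryocyte and platelet markers 7 were tested and 0 passed, and their sum was 13.1 to 14.9 CPM in controls and 10.3 to 13.5 CPM after deletion. Their part in the Vwf values was not tested.

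Egfl7, an endothelial matrix protein whose gene hosts microRNA genes, was at 55.1, 53.7 and 47.6 CPM in controls and 45.7, 48.0 and 46.7 CPM after deletion. Library cont220 lay among the deletion libraries, and the log2 difference of -0.16 was -0.02 with sex as a covariate. Mmrn2, an endothelial matrix protein that binds CLEC14A, was at 16.7 to 20.4 CPM in controls and 17.0 to 17.8 CPM after deletion. Esm1, endocan of tip cells, had the lowest level per length of the set in controls and overlapped at 1.29 to 1.63 and 1.14 to 1.88 CPM. Its 95% interval, -0.71 to 0.51, reaches beyond 1.5-fold on 52 to 84 estimated counts per library. Of the 6 ligands and secreted proteins, 1 fell and 5 did not pass.

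Junction and surface proteins, with Lyve1 counted among them, shifted in both directions, and of 9 none passed. An unadjusted edgeR p under 0.05 was reached by 5 of them (55.6%), beside 22.5% of all genes tested. Apart from Lyve1 (-1.05), the shifts were small, with log2 differences from -0.25 to 0.24. Cdh5, the VE-cadherin of endothelial junctions, was at 125, 128 and 126 CPM in controls and 109, 120 and 118 CPM after deletion. The groups did not overlap, at a log2 difference of -0.13 (edgeR adjusted p = 0.184). Pecam1, the platelet and endothelial adhesion molecule CD31, was at 72.5, 68.6 and 67.0 CPM against 67.2, 73.0 and 75.2 CPM. The groups overlapped through mut208, while mut211 and mut221 were above all controls. The 95% interval of the Pecam1 log2 difference was -0.08 to 0.18. Cldn5, the tight junction claudin, gave 27.8, 25.9 and 22.9 CPM in controls and 20.6, 23.0 and 21.0 CPM after deletion (log2 difference -0.25, edgeR adjusted p = 0.122). Library cont220 was within the deletion range, and the value was -0.09 with sex as a covariate.

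Esam, another junction adhesion molecule, Plvap, which forms the diaphragms of fenestrae and caveolae, and Icam2, a leukocyte adhesion ligand, had log2 differences of -0.06, -0.14 and -0.11. Esam and Plvap overlapped between groups, and Icam2 did not (15.8 to 16.1 and 14.2 to 15.5 CPM). Emcn, a sialomucin of venous and capillary endothelium, lay higher without overlap, at 21.0, 21.0 and 23.6 CPM in controls and 26.4, 26.8 and 24.2 CPM after deletion (log2 difference 0.24, edgeR adjusted p = 0.0997). Clec14a, a lectin-like surface protein, also lay higher in every deletion library, at 24.4, 23.7 and 24.5 against 26.4, 27.8 and 29.3 CPM (0.20, edgeR adjusted p = 0.118). The surface proteins thus did not share a direction: 6 of 9 log2 differences were below 0.

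**Figure D3:**
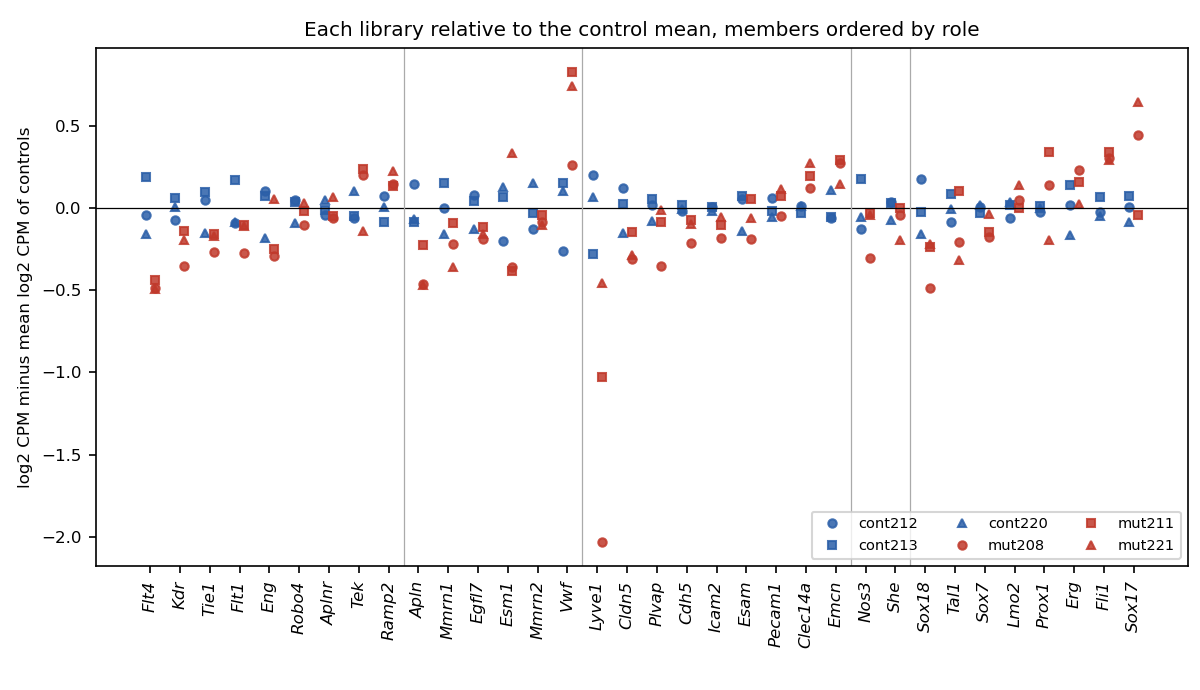
Log2 CPM of each of the 34 genes in each library minus the mean log2 CPM of the 3 controls (vertical axis), by role along the horizontal axis; blue symbols are controls and red symbols deletion libraries. Library mut208 has the lowest median over the genes (-0.18), and the widest scatter is that of Lyve1.

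The transcription factors leaned both ways. Of the SOX-F factors, which act together in vessel and lymphatic development, Sox18 was at 27.7, 24.1 and 21.9 CPM in controls and 17.5, 20.7 and 21.1 CPM after deletion. It was lower without overlap (log2 difference -0.31, edgeR adjusted p = 0.0979), although cont220 was within 1 CPM of mut221. It passed with no filter on low counts (edgeR adjusted p = 0.0437), and was -0.15 with sex as a covariate. Sox7 was also lower without overlap (15.3 to 15.8 and 13.8 to 15.2 CPM, log2 difference -0.12, edgeR adjusted p = 0.473). Sox17, the arterial member, leaned the other way, at 5.92, 6.22 and 5.57 CPM in controls and 8.05, 5.74 and 9.24 CPM after deletion, with mut211 inside the control range (0.38, edgeR adjusted p = 0.221).

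The ETS factors Fli1 and Erg keep endothelial identity genes active. Fli1, also expressed in blood cells, was at 11.6, 12.3 and 11.4 CPM in controls and 14.4 to 14.9 CPM after deletion. The groups were well apart and each was tight, at a log2 difference of 0.31 (edgeR adjusted p = 0.0594; DESeq2 adjusted p = 0.0313) and 0.36 with sex as a covariate (edgeR adjusted p = 0.254). Its locus overlaps several other annotated transcripts in GENCODE, an antisense gene among them. Erg gave 27.0, 29.3 and 23.8 CPM against 31.4, 29.7 and 27.1 CPM and overlapped (0.14, edgeR adjusted p = 0.408). Tal1 and Lmo2, partners in a complex of early blood and endothelial cells, overlapped at 6.24 to 7.03 and 5.31 to 7.10 CPM, and at 10.6 to 11.4 and 11.1 to 12.2 CPM. Both also act in red cell precursors. Of 13 tested erythroid genes 0 passed, also at an unadjusted edgeR p under 0.05, which 22.5% of all genes tested reached. Of the 8 transcription factors none passed, with 5 log2 differences above 0. An unadjusted edgeR p under 0.05 was reached by 3 of the 8 (37.5%).

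Nos3, the endothelial nitric oxide synthase, was at 11.8, 14.6 and 12.4 CPM in controls and 10.4, 12.6 and 12.5 CPM after deletion. She, an SH2-domain adaptor, was at 19.4 to 21.0 and 17.9 to 20.5 CPM. Both overlapped and neither passed (log2 differences -0.12 and -0.07). Nos3 shares its locus with Atg9b on the other strand, and 11 of the 34 genes overlap another annotated gene.

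To compare levels between genes, CPM were divided by the length of each gene's combined exons in kilobases (GENCODE M21). Combined exons take in every annotated transcript, 16064 bases for Vwf and 13504 for Flt1, so the order depends on the annotation. Cdh5 was highest in controls at 30.0 ± 0.437 CPM per kb, followed by Aplnr at 22.8 ± 0.737, Plvap at 18.7 ± 0.882 and Cldn5 at 18.0 ± 1.73. Cdh5 and Aplnr each stood clear of the gene below, whereas Plvap and Cldn5 could not be separated. The lowest were Lyve1 at 1.05 ± 0.174, Vwf at 1.02 ± 0.153 and Esm1 at 0.711 ± 0.0846 CPM per kb. Of the 33 neighbouring pairs in the order, 22 had overlapping control ranges. The first 4 genes held the same ranks in the deletion libraries. Flt4 went from rank 24 in controls (3.49 ± 0.436) to 28 in deletion libraries (2.51 ± 0.0552), Apln from 11 to 15 and Fli1 from 25 to 22. By this measure Kdr (9.26 ± 0.449) was the most abundant VEGF receptor in controls, ahead of Flt4 and of Flt1 (2.67 ± 0.287).

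**Figure D4:**
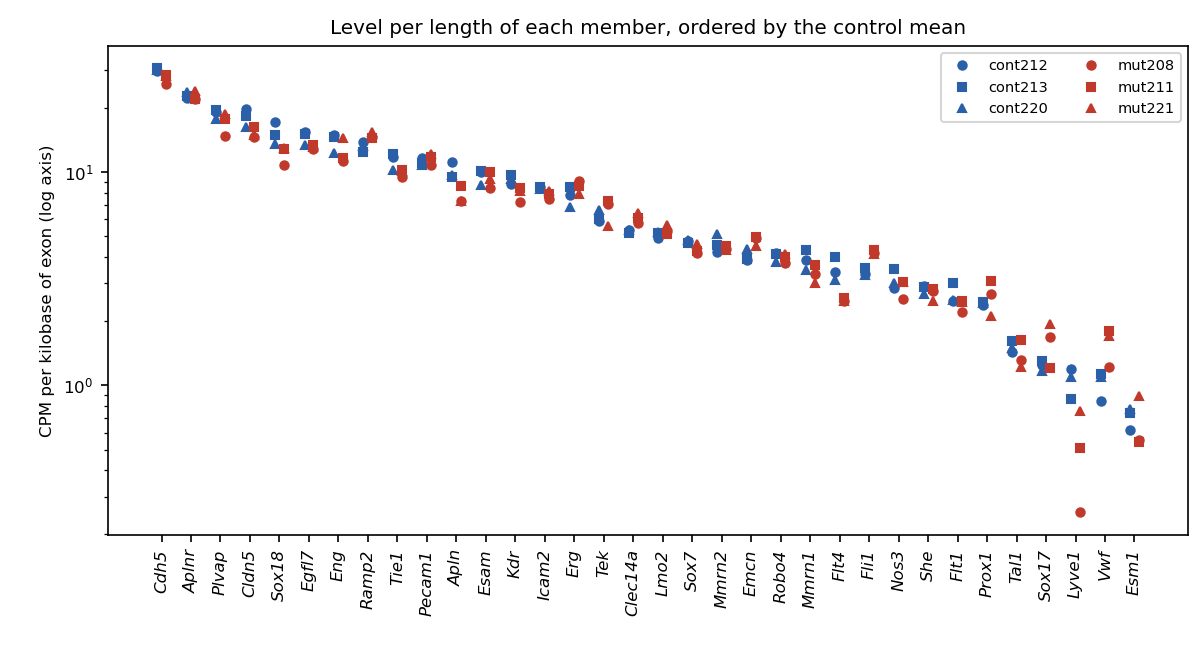
CPM per kilobase of combined exon (vertical log axis) of the 34 genes in each library, ordered by the control mean; blue symbols are controls and red symbols deletion libraries. Cdh5 and Aplnr lead in both groups, and the order is shallow in the middle, where neighbouring genes overlap.

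The coefficient of variation had a median of 6.58% in controls (1.05% for Icam2 to 16.6% for Lyve1) and 6.82% in deletion libraries (1.93% for Fli1 to 49.6% for Lyve1). Relative to the set's own median log2 difference, Flt4 stood at -0.37, Apln at -0.28, Fli1 at 0.42 and Vwf at 0.73.

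Companion lists held more endothelial genes. Of 18 further pan-endothelial genes 1 fell and 17 did not pass (5.56%, median log2 difference -0.07). The faller was Bcl6b, an endothelial repressor, from 24.6 ± 1.05 to 19.3 ± 1.01 CPM (1.28-fold, edgeR adjusted p = 0.0201). Its call was lost without cont212, cont213, mut208 or mut211 (edgeR adjusted p = 0.0589 to 0.0749) and with sex as a covariate (-0.33, edgeR adjusted p = 0.216).

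Of 12 arterial and venous genes, 2 rose and 10 did not pass (16.7%, median 0.04), beside 7.01% called of all genes tested. Log2 differences were above 0 for 7 of the 12 and below 0 for 5. Unc5b (-0.75, edgeR adjusted p = 0.0901) and Notch4 (-0.24, edgeR adjusted p = 0.145) lay lower without overlap. Hey1 was at -0.58 with overlapping groups (edgeR adjusted p = 0.171). Gja5, the arterial gap junction protein connexin 40, was at 19.2, 19.0 and 17.2 CPM in controls and 28.2, 35.4 and 25.1 CPM after deletion, all above the controls. It rose by a log2 difference of 0.68 with an SE of 0.12 (edgeR adjusted p = 0.00834), or 0.78 with sex as a covariate (edgeR adjusted p = 0.0968). Without cont213 it was 0.70 (edgeR adjusted p = 0.0502). Nr2f2, the venous and lymphatic factor COUP-TFII that palatal mesenchyme also expresses, rose from 45.6 ± 5.35 to 60.3 ± 6.32 CPM (1.32-fold, edgeR adjusted p = 0.0327). That call was lost without cont212, cont213, mut211 or mut221 (edgeR adjusted p = 0.0541 to 0.150) and with sex as a covariate (0.22, edgeR adjusted p = 0.398). Of 11 angiogenic ligands and partners, 1 fell, Angpt1, and 10 did not pass (9.09%). Of 9 tested pericyte markers, 1 fell, Anpep, a peptidase also found in mesenchyme (29.5 ± 1.04 to 21.5 ± 3.68 CPM, edgeR adjusted p = 0.0323; with 1 library left out it passed only without mut221, and with sex as a covariate the adjusted p was 0.258), and 8 did not pass (11.1%).

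Among markers of other cell types, muscle and epithelial genes were called most often. All 8 skeletal muscle markers were higher without overlap and 6 passed (75%, median log2 difference 1.16), and 4 of 6 epithelial markers fell (66.7%, median -0.43). The epithelial sum was 1016 to 1081 CPM in controls and 602 to 829 CPM after deletion. The erythroid sum ranged from 3693 to 4888 CPM in controls and from 2143 (mut221) to 4752 CPM after deletion. The sum of the 34 endothelial genes was 1055 to 1116 CPM in controls and 989 to 1070 CPM after deletion, which overlap. The sum of the 18 further pan-endothelial genes was 518 to 544 CPM in controls and 494 to 511 CPM after deletion, lower without overlap. The part of tissue composition in the endothelial values was not tested.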

How the data were processed

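Poly(A) RNA-seq of E14.5 palatal shelves was deposited as 1 table of 49492 symbols by 6 columns. The authors deposited estimated counts (expected counts, 22.1% to 22.8% of values not whole within 1e-06). The tools used were STAR 2.4.1d, CASAVA 1.8.2 and Partek on mm10, per the submitters' processing notes. For the counting tool, annotation and strand setting, the entry is: not given in the sources used here. Column names gave the group but not the labels' replicate.

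Counts were rounded. Genes were filtered by filterByExpr (minimum count 10, minimum total 15; 19284 kept), scaled by TMM and tested in edgeR 4.0.16 (glmQLFit with robust=TRUE, glmQLFTest, no covariates; R 4.3.3), adjusted by Benjamini-Hochberg over all genes, threshold 0.05. SE is the log2 fold change over the square root of F. The test was also run on counts simulated from the mean levels and the spread that edgeR estimated here. No sex difference was simulated, so that run does not bear on the uneven sexes of the groups. All pairs within a group differed by more than sampling noise, at a chi-square of 7.79 to 38.0 per degree of freedom. DESeq2 1.42.0 and limma 3.58.1 served as alternatives.

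The members and companion lists were chosen with earlier results of these data known. The naming rule took every member and, from companion lists, up to 4 called genes by lowest p, or 2 genes where none was called. Genes of the non-endothelial lists are mostly given as counts. Ccl21a, Pdpn, Vegfa, Vegfc, Ccbe1, Pgf, Adm, Calcrl, Angpt2, Unc5b, Notch4 and Hey1 are named outside it, after their values were seen.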

Additional observations from a re-analysis of the deposited data

How the results depend on the processing

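The count of 2 endothelial genes called became 6 with the DESeq2 Wald test, 5 with no filter on low counts, 0 with embryo sex as a covariate and 0 without cont212 and cont213, and it ranged from 0 to 3 when 1 library was left out (0 without cont213). The other scalings, limma voom, robust=FALSE and the CPM filter gave 2 or 3, beside 6.07% to 8.17% of all genes. DESeq2 called 11% of all genes tested and the fit with no filter 6.29%. In both of these fits the share of the 34 endothelial genes was above that of all genes. In the full comparison it was below, at 5.88% against 7.01%. Over all genes the 1352 calls became 2125 with DESeq2, 356, 545 and 711 without cont213, mut208 and mut211, 129 with the sex covariate and 89 without cont212 and cont213. No call was made in the direction opposite to the full comparison for Flt4 or Apln, whose log2 fold changes stayed between -0.55 and -0.31 and between -0.47 and -0.31 in all tested alternatives. Direction turned for these genes, none of them called in the full comparison. With the sex covariate and without cont212 and cont213, in that order, values were 0.078 and 0.080 for Esam, 0.026 and 0.028 for Eng, 0.065 and 0.067 for Robo4, and -0.030 and -0.028 for Calcrl. She was at 5.6e-05 without cont212 and cont213, and Vegfa at -0.0046 with upper-quartile factors. With 1 library left out, the ranges were -0.073 to 0.0080 for Robo4, -0.14 to 0.00062 for Mmrn2, -0.019 to 0.25 for Prox1, -0.053 to 0.014 for Aplnr, -0.37 to 0.022 for Esm1 and -0.033 to 0.061 for Vegfa. Beyond fewer samples and residual degrees of freedom in some fits, the cause was not tested. No paired analysis was possible because nothing in the labels links a control library to a deletion library. Depth limits mainly Lyve1 and Esm1, the genes of the set with the fewest counts.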
